A study of Homo sapiens with 4 samples.

Results

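Serpins are a superfamily of proteins that share 1 fold, and most of them inhibit proteases. Described here are 34 of the 28278 genes of the deposited table. They were chosen by a symbol that is SERPIN followed by a clade letter from A to I and a number. A further serpin, 1 gene, is not reported here and is in no serpin count or sum. The 34 described comprised 11 clade A, 13 clade B, 2 clade E and 2 clade F genes, 2 of clade I and 1 each of clades C, D, G and H. Of the 34, 22 passed the filter on low counts and were tested, 9 had a few counts and were not tested, and 3 were at 0 in all 4 libraries.

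The samples were A549 cells, a human lung adenocarcinoma line, grown in serum-containing medium. A lentivirus had carried either a CBX7 expression construct, giving a stable CBX7-overexpressing line (2 libraries), or a control construct, giving a stable control line (2 libraries). CBX7 is a chromobox subunit of Polycomb repressive complex 1, which silences genes through chromatin. The libraries were made from total RNA; the labels do not say whether each line is 1 clone, nor whether its 2 libraries are separate cultures. The p-values therefore reflect a spread between libraries that may be technical only.

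An inhibitory serpin offers its protease a flexible reactive loop as bait. When the protease cuts the loop, the serpin springs into a more stable shape and traps the enzyme in a covalent complex, so that each inhibitor molecule is used up. Clade A serpins are mostly secreted plasma proteins of hepatocytes, clade B serpins are mostly intracellular and guard cells against leaked or incoming proteases, and clade E serpins are secreted inhibitors of plasminogen activators and thrombin. A few members have lost inhibition and serve as hormone carriers or as a chaperone.

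CBX7 itself was at 19.0 and 17.2 CPM in the CBX7-overexpressing libraries and at 7.998 and 8.73 CPM in the control libraries (log2 fold change 1.11, SE 0.156, edgeR adjusted p = 0.000141). CPM is the depth-normalised count, per 1000000 counts of the library after its total is multiplied by the TMM scaling factor. Library totals ran from 88861255 to 90765502 estimated counts with CBX7 overexpression and from 69877585 to 88091494 in controls, and 3 counts in a library correspond to 0.0320 to 0.0440 CPM. Of 10 epithelial and lung adenocarcinoma line markers, 2 rose, 2 fell and 6 were not called. The keratins KRT8 and KRT18, marks of simple epithelium, were not called. KRT8 was at 6307 and 6990 CPM with CBX7 overexpression and at 6825 and 6980 CPM in controls. KRT18 was at 4553 and 4885 CPM against 4697 and 4704 CPM. CDH1, also not called, was at 44.5 and 47.3 CPM against 50.2 and 34.5 CPM. Other members not called were scarce. EPCAM was at 1.59 and 1.61 CPM against 0.650 and 1.19 CPM in controls. KRT19 was at 0.0748 and 0.277 CPM against 0.453 and 0.103 CPM, and CLDN4 at 2.29 and 1.86 CPM against 2.97 and 1.76 CPM. The mucin MUC1 and the keratin KRT7 fell (log2 fold changes -1.75 and -0.29), and the reductases AKR1C1 and AKR1B10 rose (1.03 and 0.57). Of 8 alveolar type II markers the surfactant genes were near 0, SFTPC with 23 counts and SFTPB with 12 over all 4 libraries. The sum of that list was nevertheless at 1.55 and 1.78 CPM with CBX7 overexpression against 65.7 and 50.2 CPM in controls, almost all of the control level being the lysosomal membrane protein LAMP3. LAMP3 was at 0.203 and 0.310 CPM with CBX7 overexpression and at 65.01 and 49.01 CPM in controls (adjusted p = 9.27e-12), while NKX2-1, a lung transcription factor, rose (log2 fold change 1.61, adjusted p = 0.0489). Of 8 leukocyte markers, CD3E and MS4A1 were at 0 and PTPRC had 15 counts over all 4 libraries. The summed leukocyte list was nevertheless at 27.1 to 27.6 CPM with CBX7 overexpression against 166 to 171 CPM in controls, almost all of it CD68, a lysosomal protein, at 23.5 and 23.6 CPM against 158 and 165 CPM. Summed fibroblast markers were at 8.08 to 8.91 CPM with CBX7 overexpression and 7.37 to 9.22 CPM in controls, a sum carried by COL1A1, and FAP alone of that list was called, at 0 and 0.0333 CPM against 1.66 and 0.938 CPM in controls (adjusted p = 0.000398). Summed endothelial markers were at 33.6 to 37.7 CPM against 21.8 to 24.5 CPM, mostly EGFL7, at 28.7 and 33.0 CPM against 18.8 and 21.9 CPM. Of that list EGFL7 and CDH5 rose. ESAM, TEK, PECAM1 and VWF were not called, and KDR and CLDN5 were not tested. Summed hepatocyte markers, mostly APOH, were at 11.3 to 13.3 CPM with CBX7 overexpression against 5.12 to 5.25 CPM in controls.

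Transcripts of the 34 serpins described were less abundant in sum with CBX7 overexpression. The summed level of the 34 genes was 394 and 404 CPM in the CBX7-overexpressing libraries, against 550.1 and 550.7 CPM in the control libraries. The CBX7 mean was 399 ± 6.81 CPM and the control mean 550.4 ± 0.404 CPM (SD, n = 2 each), a 1.38-fold lower sum with CBX7 overexpression, and most of the sum came from SERPINB1, SERPINE2 and SERPINB6 in each library. In bulk RNA, fewer cells that express a gene and less RNA per cell cannot be told apart.

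**Figure D1:**
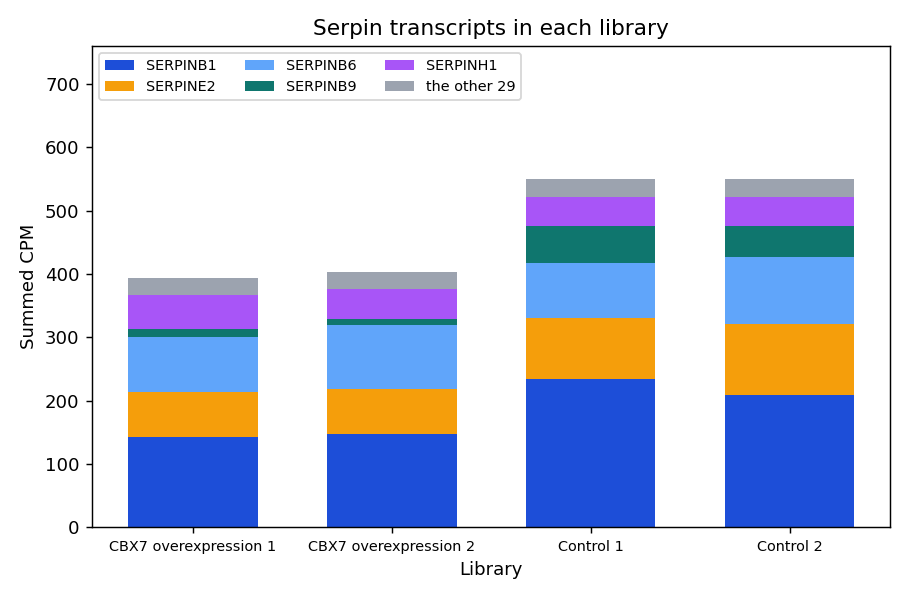
Summed CPM (y axis) of the 34 serpin genes in each library (x axis), stacked by gene, with 5 genes drawn singly and the other 29 together. The SERPINB1 segment at the base is 142 and 148 CPM in the CBX7-overexpressing libraries and 234 and 209 CPM in the control libraries, and the SERPINB9 segment is 13.3 and 10.6 CPM against 59.3 and 49.3 CPM.

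Of the 22 tested serpins, 5 fell (22.7%), 2 rose (9.09%) and 15 were not called at an adjusted p under 0.05. Among all 17271 tested genes, 24.4% were called, 13.9% lower and 10.5% higher. The share of serpins that fell was above the background, and the share that rose was near it. The excess of falls rests on only 5 genes and was not tested. The serpins that fell were SERPINE2 of clade E, SERPINB1, SERPINB8 and SERPINB9 of clade B, and SERPING1. Those that rose were SERPINF2 and SERPINI1. The median log2 fold change of the tested serpins was -0.001, against -0.0002 over all tested genes, and it was the same with genes at 0 in 1 group set to their bound. The levels of the 2 groups did not overlap in 15 of the 22 (68.2%), against 62.8% of all tested genes. Scaling by library totals in place of TMM turned the split of all calls round, to 2487 higher and 2033 lower against 1809 higher and 2399 lower, and gave 3 serpins higher and 5 lower. The 2 rises were less secure than the falls: the count of serpins called higher was 0 without control library 1 and 1 without either CBX7 library.

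**Figure D2:**
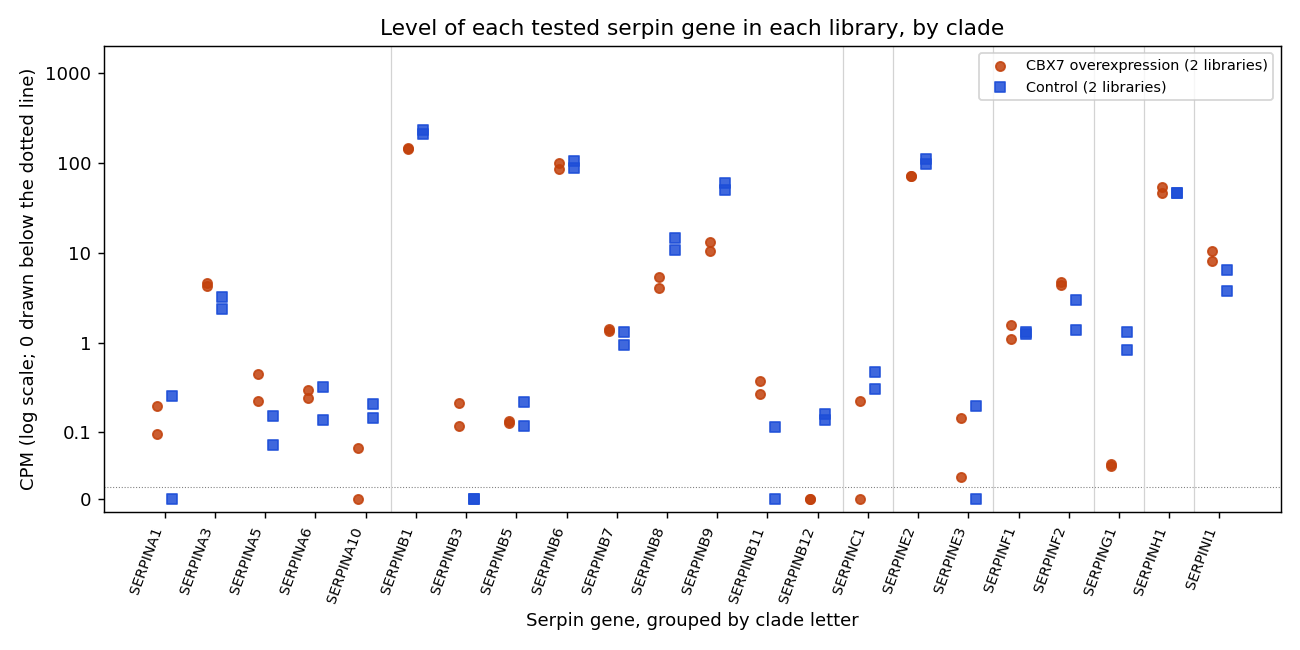
CPM of each of the 22 tested serpins (log axis, with 0 drawn below the dotted line) in the 2 CBX7-overexpressing libraries (orange circles) and the 2 control libraries (blue squares), grouped by clade. SERPINB1, SERPINE2, SERPINB8, SERPINB9 and SERPING1 lie lower in both CBX7 libraries, and 10 of the 22 have under 150 counts over all libraries.

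Most calls lay among the well-covered members. With a cut set after the values were seen, 9 tested serpins had a total of 1000 or more counts over the 4 libraries, and 6 of these were called, against 31.1% of the 11878 tested genes at that depth. A further 10 had under 150 counts in total and 0 of these were called. The share called among all tested genes under 150 counts was not worked out, so this 0 has no background beside it. SERPING1, which was called, had 179 counts in total and so lies close above that cut. For the 10 scarce genes, changes of moderate size were not detectable at this depth. Per kilobase of annotated exon, SERPINB1 stood well above the other genes described, at a mean of 46.9 CPM per kb with CBX7 overexpression and 71.6 CPM per kb in controls. The next places with CBX7 overexpression were held by SERPINE2 (7.93 to 8.10 CPM per kb), SERPINH1 (7.34 to 8.56) and SERPINB6 (6.49 to 7.62), whose library values overlap from one to the next. In controls the next place was shared by SERPINB9 (11.97 to 14.4 CPM per kb) and SERPINE2 (10.8 to 12.6), which overlap too, whereas with CBX7 overexpression SERPINB9 was at 2.57 to 3.23 CPM per kb. Exon lengths are those of all annotated isoforms together, which lowers the value of a gene with many isoforms such as SERPINB6.

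In clade E, SERPINE2 fell by a modest amount. SERPINE2 (chromosome 2, 223975045 to 224039286, GRCh38), protease nexin 1, inhibits thrombin and urokinase and is held at the cell surface by heparan sulphate. It was at 72.0 and 70.5 CPM with CBX7 overexpression and at 96.3 and 112 CPM in controls, again without overlap. Its fall was small, 1.46-fold (log2 fold change -0.55, SE 0.112, adjusted p = 0.00286). SERPINE3 had 3 and 13 counts with CBX7 overexpression against 17 and 0 in controls (adjusted p = 0.952), groups that overlap, and it overlaps the gene INTS6 on the opposite strand, so with strandedness not given its few counts are uncertain. Of these 2 clade E genes, 1 fell and 1 was not called.

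Clade B, the intracellular branch, held 13 genes, of which 9 were tested. Of these, 3 fell (33.3%, against 13.9% of all tested genes), 0 rose (against 10.5%) and 6 were not called (median log2 fold change -0.37; limma-voom called 5 and library totals called 4). At an unadjusted p under 0.05, 5 passed (55.6%, against 35.6% of all tested genes). Its members lie in 2 clusters, 3 genes within 139 kb on chromosome 6 and 10 genes within 543 kb on chromosome 18. The promoter window, from 250 bases before to 50 bases after the start, is shown for 3 clade B genes that fell. It is also shown for SERPINB6, the neighbour of SERPINB1 and SERPINB9 that was not called. Whether these genes share regulation was not tested. The sequences are from RefSeq (GRCh38.p14), 5′ to 3′ on the strand of the gene. They cover chr6:2903260-2903559 (minus strand) for SERPINB9, chr18:63969831-63970130 (plus strand) for SERPINB8, chr6:2841814-2842113 (minus strand) for SERPINB1 and chr6:2971518-2971817 (minus strand) for SERPINB6. Capitals mark every match, on either strand, to 1 of the 6 motifs searched, which were NF-kB (GGG, any 5 bases, CC), ISRE (GAAA, any 2 bases, GAAA), AP-1 (TGANTCA), STAT (TTCNNNGAA), CRE (TGACGTCA) and TATA box (TATAAA); overlapping matches run together.

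SERPINB9: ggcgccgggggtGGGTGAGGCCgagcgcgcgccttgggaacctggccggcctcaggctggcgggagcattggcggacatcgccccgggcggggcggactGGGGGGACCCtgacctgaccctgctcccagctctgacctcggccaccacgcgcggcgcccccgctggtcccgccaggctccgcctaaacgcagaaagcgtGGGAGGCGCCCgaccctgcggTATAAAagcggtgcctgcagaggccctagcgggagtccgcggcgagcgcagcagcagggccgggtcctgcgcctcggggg

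SERPINB8: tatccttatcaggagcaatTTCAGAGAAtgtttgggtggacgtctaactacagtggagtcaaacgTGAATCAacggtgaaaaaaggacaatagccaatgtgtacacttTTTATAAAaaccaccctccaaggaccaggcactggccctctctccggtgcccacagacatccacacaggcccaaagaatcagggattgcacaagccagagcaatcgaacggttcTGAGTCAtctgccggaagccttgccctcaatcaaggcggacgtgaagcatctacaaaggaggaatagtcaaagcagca

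SERPINB1: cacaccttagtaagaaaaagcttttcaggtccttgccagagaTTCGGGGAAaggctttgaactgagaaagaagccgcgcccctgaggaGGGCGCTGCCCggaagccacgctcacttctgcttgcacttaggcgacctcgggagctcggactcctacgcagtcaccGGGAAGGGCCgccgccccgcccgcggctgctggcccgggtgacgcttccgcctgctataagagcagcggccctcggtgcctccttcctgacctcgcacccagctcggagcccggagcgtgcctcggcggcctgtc

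SERPINB6: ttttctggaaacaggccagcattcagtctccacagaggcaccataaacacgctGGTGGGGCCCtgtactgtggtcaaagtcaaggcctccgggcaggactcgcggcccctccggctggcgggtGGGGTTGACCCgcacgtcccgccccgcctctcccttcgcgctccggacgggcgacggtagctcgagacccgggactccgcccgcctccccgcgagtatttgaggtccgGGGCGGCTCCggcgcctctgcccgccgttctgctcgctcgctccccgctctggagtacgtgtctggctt

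The TATA box letters of SERPINB9 stand 30 to 25 bases before the start, and its window holds NF-kB letters at 3 places on the sense strand, nearest at -51 to -42. SERPINB8 holds AP-1 letters at -185 to -179 and -28 to -22, and STAT letters at -231 to -223. Its TATA box letters stand at -142 to -137 (antisense strand) and -140 to -135 (sense strand), farther from the start than those of SERPINB9. SERPINB1 holds STAT letters at -208 to -200 and NF-kB letters, and SERPINB6, which was not called, holds NF-kB letters as well. A match is a string of letters and not a shown binding site. The NF-kB letters occur in 58.7% of all 35116 promoter windows and in 14 of the 27 serpin windows that could be matched by symbol (51.9%). AP-1 letters occur in 7 of 27 serpin windows (25.9%, against 7.71% of all windows), STAT letters in 9 (33.3% against 7.66%), TATA box letters in 6 (22.2% against 11.5%), and ISRE and CRE letters in 0 (against 3.57% and 1.85%). Of the 7 serpins with AP-1 letters 4 were tested and 1, SERPINB8, was called. Of the 9 with STAT letters 6 were tested and 2, SERPINB1 and SERPINB8, were called. Of the 14 with NF-kB letters 12 were tested and 2, SERPINB1 and SERPINB9, were called. Of the 6 with TATA box letters 2 were tested and both, SERPINB8 and SERPINB9, were called. Among all tested serpins 31.8% were called, and among all tested genes 24.4%. Counts this small allow no statement on any motif. Base composition differs between the sets, with a median GC content of 48.7% in serpin windows and 58.7% in all windows, and its part in these shares was not tested.

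SERPINB9 (chromosome 6, 2887270 to 2903309, GRCh38) encodes the inhibitor of granzyme B, the protease by which cytotoxic lymphocytes kill, and shields cells that carry it. It had 1245 and 953 counts, or 13.3 and 10.6 CPM, with CBX7 overexpression, against 5109 and 3362 counts, or 59.3 and 49.3 CPM, in controls. The groups stood well apart, and the fall of 4.55-fold was the largest among clade B calls (11.9 ± 1.93 against 54.3 ± 7.10 CPM, SD, n = 2 each; log2 fold change -2.19, SE 0.148, adjusted p = 9.62e-08). GZMB, its target, was at 0 counts in all 4 libraries, a gene named after its values were seen. SERPINB8 (chromosome 18, 63970081 to 64019779, GRCh38) inhibits the proprotein convertase furin. It was at 5.43 and 4.07 CPM with CBX7 overexpression and at 14.7 and 10.8 CPM in controls. It fell 2.69-fold (log2 fold change -1.43, SE 0.217, adjusted p = 0.000292), and the groups did not overlap. The gene HMSD overlaps it on the same strand and had 67 and 36 counts with CBX7 overexpression against 21 and 13 in controls, far fewer than the 508 and 367 against 1264 and 739 of SERPINB8. How shared reads were divided is not given in the sources used here.

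SERPINB1 (chromosome 6, 2832332 to 2841863, GRCh38) inhibits neutrophil elastase, cathepsin G and proteinase 3 and was the most abundant clade B gene. It was at 142 and 148 CPM with CBX7 overexpression and at 234 and 209 CPM in controls. The fall was 1.53-fold and beyond the spread between libraries of a group (log2 fold change -0.61, SE 0.0982, adjusted p = 0.000463). SERPINB6, an inhibitor of cathepsin G that lies beyond SERPINB9 in the same cluster, was at 85.7 and 101 CPM with CBX7 overexpression and 87.3 and 106 CPM in controls. Its groups overlapped (log2 fold change -0.05, SE 0.123, adjusted p = 0.822; 0.015 when scaled by library totals). So of 3 neighbouring and well-covered genes on chromosome 6, 2 fell by unequal amounts and 1 was not called. Among all tested genes 13.9% fell, and 3 genes allow no statement on the cluster.

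The remaining clade B genes were scarce. SERPINB7, or megsin, a serpin of skin and kidney, was at 1.42 and 1.34 CPM with CBX7 overexpression and at 1.32 and 0.938 CPM in controls (adjusted p = 0.688). SERPINB5, or maspin, a non-inhibitory serpin first described as a tumour suppressor of breast epithelium, had 12 and 12 counts against 19 and 8 in controls (adjusted p = 0.866). SERPINB3, squamous cell carcinoma antigen 1, had 11 and 19 counts with CBX7 overexpression and 0 in both controls, at least 4.16-fold above the floor of 3 counts per library. It was not called (adjusted p = 0.0512), and it passed with limma-voom (0.0281), library totals (0.0467), upper-quartile scaling (0.0453) or no robust estimation (0.0499). Over the 11 alternatives that tested it, its adjusted p ran from 0.0281 to 0.197. Its near-identical neighbour SERPINB4 had 2 counts, all in CBX7 library 2, so the split of reads between them is uncertain. SERPINB11 overlaps SERPINB3 on the opposite strand and had 35 and 24 counts with CBX7 overexpression against 10 and 0 in controls (adjusted p = 0.224); without strand these 2 genes cannot be told apart where they overlap. SERPINB12 went the other way, with 0 counts in both CBX7 libraries and 12 and 11 in controls, at least 4.602-fold lower. It was not called either (adjusted p = 0.0561), except with limma-voom (0.0235), and its adjusted p ran up to 0.245 over the 10 alternatives that tested it. A 0 can also be a failed estimate, and then neither bound applies. SERPINB13 had 6 and 0 counts against 3 and 11 in controls and was not tested, and SERPINB2, plasminogen activator inhibitor 2, and SERPINB10 were listed at 0 in all 4 libraries.

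**Figure D3:**
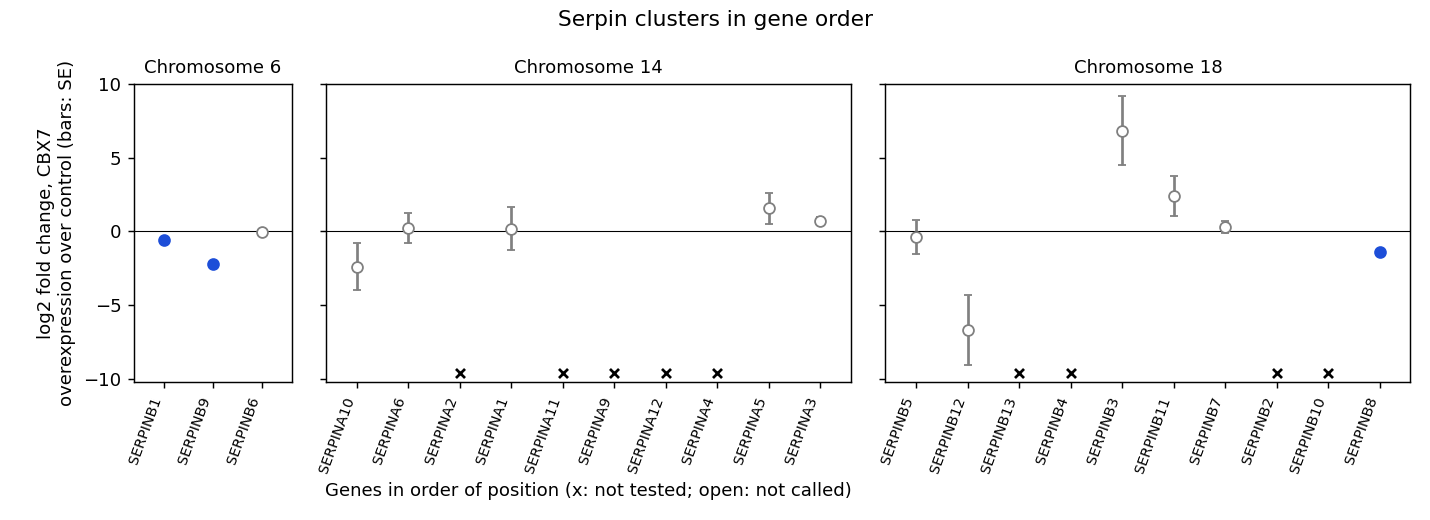
Fitted log2 fold change (y axis, bars SE) of serpin genes in order of position on chromosomes 6, 14 and 18; blue filled points fell, open grey points were not called and crosses at the bottom mark genes that were not tested. Of the called genes, SERPINB1 and SERPINB9 are neighbours on chromosome 6 and SERPINB8 lies at one end of the chromosome 18 cluster; values of SERPINB3 and SERPINB12, each at 0 in 1 group, depend on the prior count.

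Of 5 tested clade A genes, 0 were called, against 24.4% of all tested genes, and 4 of the 5 had under 150 counts in total. All but 1 of its 11 genes lie within 344 kb on chromosome 14, and SERPINA7 is on chromosome X. The tested members had a median log2 fold change of 0.24 and 1 of them, SERPINA3, had an unadjusted p under 0.05; DESeq2 and limma-voom called 0 as well. SERPINA3 encodes antichymotrypsin, an acute-phase inhibitor of cathepsin G, and was the most abundant of them. It was at 4.58 and 4.30 CPM with CBX7 overexpression and at 2.36 and 3.21 CPM in controls. The groups did not overlap, but the difference did not pass (log2 fold change 0.68, SE 0.275, adjusted p = 0.0913, from 0.0615 to 0.319 over the alternatives). SERPINA1, which encodes alpha-1-antitrypsin, the plasma inhibitor of neutrophil elastase, had 9 and 18 counts with CBX7 overexpression against 22 and 0 in controls (adjusted p = 0.952). SERPINA5, protein C inhibitor, had 21 and 40 counts against 13 and 5 in controls (adjusted p = 0.336), and the cortisol carrier SERPINA6 had 28 and 22 against 12 and 22 (0.903). SERPINA10, which inhibits factor Xa together with protein Z, had 0 and 6 counts against 18 and 10 in controls (0.308). The other 6 clade A genes were not tested. SERPINA12, or vaspin, had 0 and 3 counts against 0 and 18 in controls, SERPINA4, or kallistatin, 5 and 0 against 0 and 7, SERPINA9 0 and 0 against 0 and 7, SERPINA11 0 and 0 against 0 and 3, and SERPINA2 4 and 0 against 0 and 0. The thyroxine carrier SERPINA7 was listed at 0 throughout.

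Clades C, D and F to I held 8 genes, of which 6 were tested. Of these, 2 rose (33.3%, against 10.5% of all tested genes), 1 fell (16.7%, against 13.9%) and 3 were not called. SERPING1 (chromosome 11, 57597685 to 57614848, GRCh38) encodes C1 inhibitor, which restrains the complement proteases C1r and C1s, plasma kallikrein and factor XIIa. It had 4 counts in each CBX7 library, or 0.0427 and 0.0443 CPM, against 114 and 57 counts, or 1.32 and 0.835 CPM, in controls. The CBX7 libraries were close to the floor, and the fall of 24.0-fold was the largest fold among called serpins (log2 fold change -4.59, SE 0.805, adjusted p = 0.000925). SERPINF2 (chromosome 17, 1742871 to 1755265, GRCh38), alpha-2-antiplasmin, the main plasma inhibitor of plasmin, was at 4.78 and 4.39 CPM with CBX7 overexpression and at 1.37 and 2.95 CPM in controls. It rose 2.13-fold (log2 fold change 1.09, SE 0.342, adjusted p = 0.0325), with log2 fold changes from 0.64 without control library 1 to 1.75 without control library 2. The controls differed from each other by more than the CBX7 libraries did, and leaving out control library 1 ended the call (adjusted p = 0.175), as did leaving out CBX7 library 1 (0.0812) or omitting robust estimation (0.0502). SERPINI1 (chromosome 3, 167735721 to 167825569, GRCh38), or neuroserpin, an inhibitor of tissue plasminogen activator best known in neurons, was at 8.12 and 10.5 CPM with CBX7 overexpression and at 3.77 and 6.36 CPM in controls. It rose 1.84-fold (log2 fold change 0.88, SE 0.253, adjusted p = 0.0213), a call lost without control library 1 (0.138) or CBX7 library 2 (0.123), and its log2 fold change ran from 0.55 to 1.31 with 1 library left out. Hepatocytes make SERPINF2, and the higher sum of hepatocyte markers given above was mostly the single gene APOH. Of 5 tested hepatocyte markers, APOH rose and 4 were not called. Among those not called, ALB was at 0.192 and 0.133 CPM with CBX7 overexpression against 0.580 and 0.777 CPM in controls. Any link of these markers to the rise of SERPINF2 was not tested.

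The other members of these clades were not called or not tested. SERPINH1, or HSP47, a collagen chaperone of the endoplasmic reticulum without inhibitory activity, was at 53.8 and 46.1 CPM with CBX7 overexpression and 45.8 and 46.3 CPM in controls (log2 fold change 0.12, SE 0.117, adjusted p = 0.532). SERPINF1, pigment epithelium-derived factor, a non-inhibitory secreted protein that restrains vessel growth, lies next to SERPINF2 and was at 1.09 and 1.59 CPM against 1.32 and 1.26 CPM in controls (adjusted p = 0.954). SERPINC1, antithrombin, had 0 and 20 counts with CBX7 overexpression against 26 and 32 in controls (adjusted p = 0.378), and it passed only when CBX7 library 2 was left out (0.0226). SERPIND1, heparin cofactor II, had 0 and 0 counts against 4 and 7 in controls, and SERPINI2 had 5 and 5 against 0 and 0, too few to be tested.

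**Figure D4:**
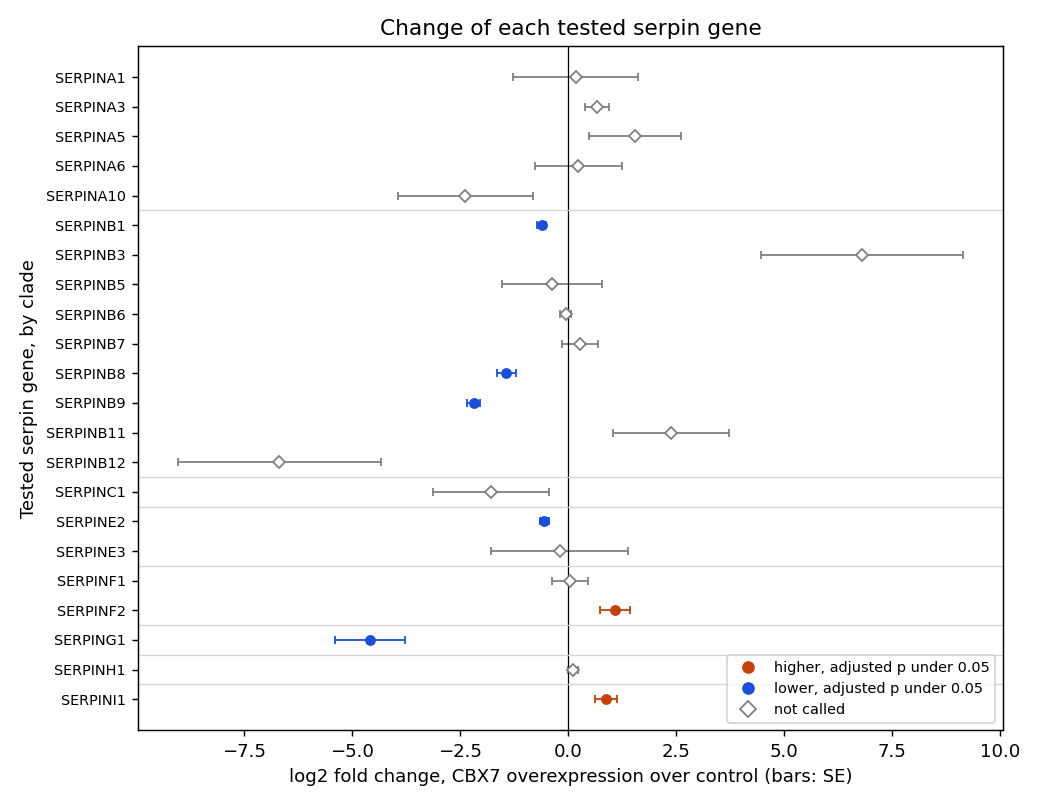
Fitted log2 fold change of each tested serpin (x axis, bars SE), CBX7 overexpression over control, grouped by clade from A at the top to I at the bottom; orange circles rose, blue circles fell and open grey diamonds were not called. The 5 that fell run from -0.55 for SERPINE2 to -4.59 for SERPING1, and the SE of genes with few counts spans more than 1 log2 unit.

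The proteases that serpins restrain were examined with 51 genes, which also include the urokinase receptor PLAUR and the coagulation cofactor F3, both non-proteases. Of the 30 tested, 11 fell (36.7%, against 13.9% of all tested genes), 3 rose (10.0%, against 10.5%) and 16 were not called, with a median log2 fold change of -0.70. Without PLAUR and F3, 9 of 28 tested proteases fell (32.1%), 3 rose (10.7%) and 16 were not called (median -0.62). Urokinase (PLAU) was at 46.4 and 52.1 CPM with CBX7 overexpression and at 93.6 and 104 CPM in controls (log2 fold change -1.002, SE 0.114, adjusted p = 2.09e-05), and its receptor PLAUR at 31.6 and 31.4 CPM against 88.9 and 95.4 CPM (-1.55). Tissue plasminogen activator (PLAT), named after its values were seen, was also lower (log2 fold change -0.94, adjusted p = 0.0123). So SERPINE2 fell together with urokinase, which it inhibits, and with the urokinase receptor.

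Among the proteases known as targets of SERPING1, C1R, C1S and KLKB1 fell and F12 rose. C1R was at 5.37 and 7.72 CPM with CBX7 overexpression and at 65.4 and 53.9 CPM in controls, and C1S at 23.5 and 23.6 CPM against 102 and 84.0 CPM (log2 fold changes -3.19 and -1.98). F12 rose by a log2 fold change of 0.95 (adjusted p = 0.0102). The lectin pathway proteases MASP1 and MASP2, named after their values were seen, were not called (log2 fold changes -1.52 and -0.58, adjusted p = 0.424 and 0.515). The lysosomal cysteine proteases CTSL, a target of SERPINB3 and SERPINB13, and CTSS fell by 1.12 and 2.11 on the log2 scale. CASP8, the initiator of death receptor signalling, fell by 0.75, and F3, tissue factor, which starts coagulation, fell by 1.04, a call lost without CBX7 library 1 (adjusted p = 0.0602). The other falls were KLK10 and KLKB1, and the rises were F12, CTSV and PROC, all named after their values were seen. Each of these 5 calls, and that of PLAT, was lost when at least 1 library was left out. KLK10 was scarce too, with 79 and 26 counts in controls against 0 and 3 with CBX7 overexpression. FURIN, the target of SERPINB8, was at 83.4 and 78.4 CPM with CBX7 overexpression and at 61.6 and 75.5 CPM in controls and was not called (adjusted p = 0.174), and it too was named after its values were seen.

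Of 32 listed inhibitors outside the serpin fold, 16 were tested, 2 rose (12.5%, against 10.5% of all tested genes), 1 fell (6.25%, against 13.9%) and 13 were not called (median log2 fold change 0.21). With 18.8% called against 24.4% of all tested genes, the list was near the background. TFPI2, a Kunitz inhibitor of plasmin and trypsin, was at 498 and 529.9 CPM with CBX7 overexpression against 868 and 707 CPM in controls, and it fell (log2 fold change -0.62, adjusted p = 0.00103). SLPI, the secretory leukocyte protease inhibitor of airways, rose to 8.79 and 8.70 CPM, against 5.65 and 4.38 CPM in controls (adjusted p = 0.0131). CST1, a secreted cystatin, was the other rise, from low counts (log2 fold change 1.53, adjusted p = 0.0298). Both rises were lost when single libraries were left out, SLPI without control library 2 (0.0662), CBX7 library 1 (0.0612) or CBX7 library 2 (0.0507). Cystatin C (CST3), cystatin B (CSTB), elafin (PI3), the hepatocyte growth factor activator inhibitor SPINT2 and AMBP were not called, with log2 fold changes of -1.07 to 0.58.

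Of 12 cofactors and clearance receptors, all tested, 4 rose (33.3%, against 10.5% of all tested genes), 2 fell (16.7%, against 13.9%) and 6 were not called (median log2 fold change 0.098). LRP1, the receptor that takes up serpin-protease complexes, rose to 49.9 and 48.7 CPM, against 32.3 and 37.8 CPM in controls (log2 fold change 0.49, adjusted p = 0.00855), a call lost without CBX7 library 1 (0.0627). The related sorting receptor SORL1 rose by a log2 fold change of 1.29, while VLDLR, another receptor for such complexes, fell by 0.71. The cell-surface proteoglycans split, with SDC1 higher (0.58) and SDC4 lower (-1.09), and the anticoagulant cofactor PROS1 rose by 0.69. Vitronectin (VTN), an adhesive glycoprotein of plasma and matrix, was at 12.7 and 14.3 CPM with CBX7 overexpression and 9.41 and 10.1 CPM in controls and was not called (adjusted p = 0.0519), although it passed under 5 of 13 alternatives (0.0272 with library totals). LRP8, a receptor of the same family as VLDLR, was at 157 and 143 CPM with CBX7 overexpression and 129 and 115 CPM in controls and was not called either (log2 fold change 0.30, adjusted p = 0.0542); it passed under 7 of 13 alternatives, with adjusted p from 0.0226 to 0.377.

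**Figure D5:**
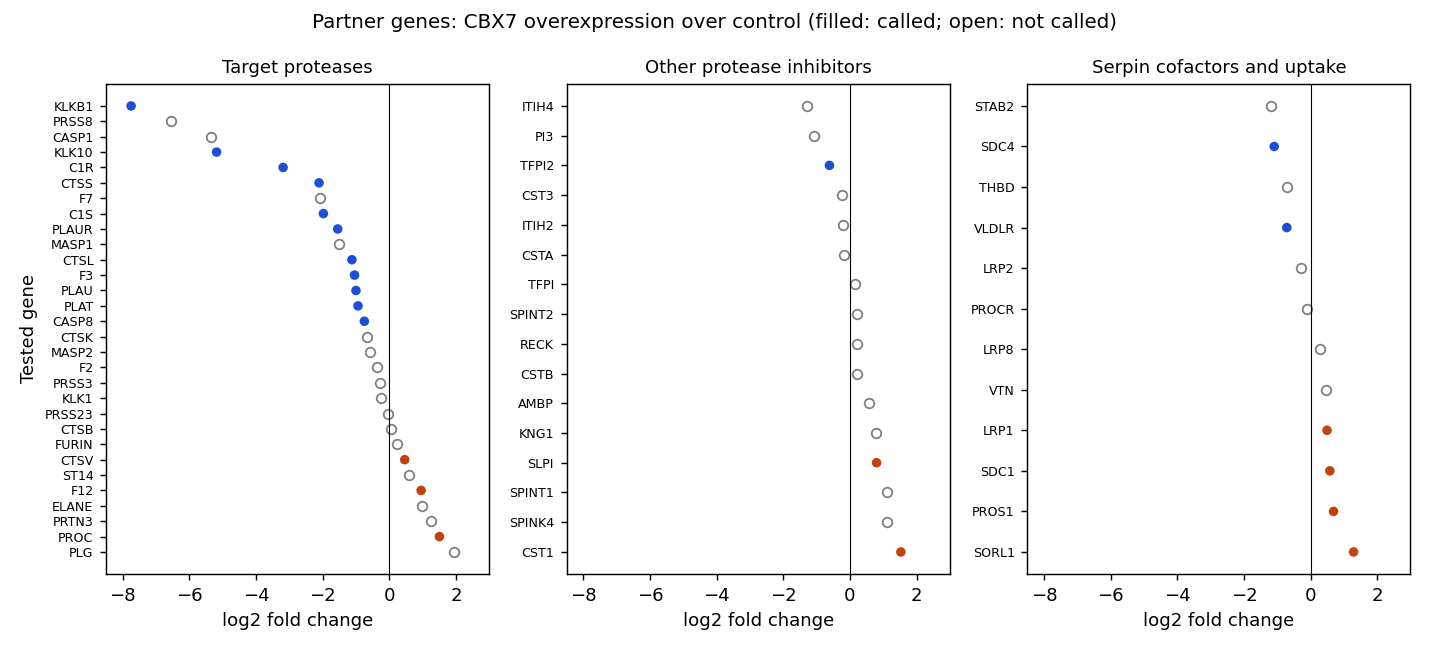
Log2 fold change (x axis), CBX7 overexpression over control, of the tested genes in 3 lists of serpin partners; filled blue points fell, filled orange points rose and open points were not called. The protease list, PLAUR and F3 included, holds 11 falls and 3 rises, the list of other inhibitors 1 fall and 2 rises, and the list of cofactors and receptors 2 falls and 4 rises; differences between the lists were not tested.

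Of the 3 tested genes of the leukocyte list, CD68 and ITGAM fell and CD14 rose, with ITGAM at 0.822 and 0.820 CPM with CBX7 overexpression and 6.13 and 4.59 CPM in controls. SERPINB1 and SERPINB9, known from neutrophils and lymphocytes, are the serpins closest to that list; its part in their fall was not tested.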

How the data were processed

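RNA of 4 A549 libraries was sequenced, 2 with CBX7 overexpression and 2 controls. The deposited table gives 1 whole-number value per gene symbol and library, treated as estimated counts; the tools DESeq2, StringTie 2.2.1 and HISAT2 2.2.1 and build hg38 are listed, without roles, per the submitters' processing notes. The sources used here do not give annotation, strandedness or the handling of shared reads, and a 0 can be a failed estimate. All columns were matched by title.

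Here edgeR 4.0.16 in R 4.3.3 (filterByExpr, TMM, robust quasi-likelihood test, group as the only term) compared CBX7 overexpression with control over the whole table, with Benjamini-Hochberg adjustment over all 17271 tested genes and calls at an adjusted p under 0.05. All adjusted p are from this test unless another tool is named. SE was derived from the fold change and its F statistic. Folds against a group at 0 are bounds at 3 counts per library; such floors cover counting error only. Exon lengths are from GENCODE 29, positions from RefSeq GRCh38. Count tests were checked on simulated data, in which only well-covered genes were changed and all genes had the same spread. The check therefore does not cover scarce genes such as SERPING1. Alternatives were DESeq2 1.42.0, limma-voom (limma 3.58.1), other scalings and filters (none, or a mean count of 50), a replicate block, no robust estimation and each library left out.

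The members, lists, motifs and tests were chosen with earlier results of these data known. All 34 serpins described are accounted for; 1 serpin and 1 partner gene are not reported here and are in no serpin or list count; in each partner list up to 8 genes with the smallest p are named, and any others are marked as chosen after their values were seen. Same-numbered libraries are not paired by any label.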

Additional observations from a re-analysis of the deposited data

How the results depend on the processing

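The falls of SERPINE2, SERPINB1, SERPINB8 and SERPINB9 kept their direction and their call under all 13 alternatives, with log2 fold changes of -0.65 to -0.43, -0.68 to -0.52, -1.65 to -1.19 and -2.36 to -2.02; SERPING1 kept them under the 12 that tested it (-4.87 to -4.21). With 1 library left out, whose lone partner is assumed to vary like the other group, all genes called higher numbered 1021 to 1790, serpins called higher 0 to 2, called genes of clades C, D and F to I 1 to 3, target proteases called higher 1 to 3 and other inhibitors called higher 0 to 2. limma-voom called 5 clade B genes, counted in either direction, and it called 1 other inhibitor higher. The cause was not tested. Among the named genes, signs turned for 6 serpins, none of which was called. SERPINB6 was at 0.015 with library totals, 0.0027 with upper-quartile scaling, and with 1 library left out it ran from -0.18 to 0.10. SERPINE3 was at 0.78 with limma-voom, 0.42 with the replicate block, and from -1.59 to 5.91 with 1 library left out. On leaving out 1 library SERPINA1 ran from -0.78 to 6.65, SERPINA6 from -0.24 to 0.96, SERPINB5 from -0.74 to 0.16 and SERPINF1 from -0.24 to 0.30. The replicate block gave 2100 genes higher and 2503 lower, and 2 serpins higher and 5 lower; same-numbered libraries share only a number, and their deviations correlated at r = 0.0281 over genes. Serpins under 150 counts in total allow no statement on small changes.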
